A study of Mus musculus with 16 samples.

Results

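The mRNAs of 8 cytokines were followed in MC38 cells, a mouse colon adenocarcinoma line grown as a culture in serum-containing medium. The genes are Lif, Il6 and Il11 of the interleukin 6 family, the colony-stimulating factors Csf1, Csf2 and Csf3, and the inflammatory cytokines Il1a and Tnf. They were chosen by symbol, and all 8 were among the 55401 genes of the deposited count table. Reads from 7 of them were present in at least 1 library.

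The groups were cells labelled Ythdf2-KO, which carry gY2 in their sample titles, and cells labelled WT, which carry gNC. If these tags name guide RNAs, as they read, the WT cells may themselves have received a control guide. YTHDF2 is a reader protein of m6A, the methylation of adenosine in mRNA, and brings deadenylases to the bound transcript. Of the 16 libraries of the study, the counts covered the 3 input libraries of each group, that is, fragmented polyadenylated RNA before pull-down. The m6A pull-down libraries (3 labelled Ythdf2-KO and 3 WT) and the YTHDF2 RNA immunoprecipitation (RIP) libraries (2, whose labels give the genotype WT but whose titles carry no guide tag) entered only as peak lists. The sources used here do not say whether a group was a clone or a pool of cells, or whether its replicates were separate cultures.

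Interleukin 6 family cytokines signal through the shared receptor chain gp130, encoded by Il6st, which activates JAK kinases and the transcription factor STAT3. CSF1 sustains macrophages, CSF2 (GM-CSF) acts on granulocytes and macrophages, and CSF3 (G-CSF) drives neutrophil production. IL-1α and TNF are inflammatory signals that activate NF-kB, and tumour cells that release cytokines of these families can recruit or reprogram myeloid cells. Many cytokine mRNAs are short-lived because AU-rich elements in their 3′ UTR are bound by decay factors such as tristetraprolin.

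Total counts ran from 45441281 to 50959555 per library. Ythdf2 itself had 67.9, 59.8 and 61.5 CPM (counts scaled to a library of 1000000, on TMM-scaled library sizes, as are all CPM below) in the libraries labelled Ythdf2-KO, against 55.6, 68.6 and 59.7 CPM in WT (log2 fold change 0.04, edgeR adjusted p = 0.809). Reads were counted over the whole gene, edited or not, so this level is no check of the knockout, and these libraries are called KO-labelled. KO-labelled replicate 1 stood apart from its group, on the side of the WT libraries. The first principal component of the 18969 genes tested below held 51.4% of the variance. On it the KO-labelled libraries lay at -10.4, 64.1 and 63.2 and the WT libraries between -39.2 and -38.6. Results are therefore given with all 6 libraries and also without KO-labelled replicate 1. That library was singled out from these same counts, as the KO-labelled library nearest the WT libraries on this component. Leaving it out favours larger differences between the groups, so the adjusted p-values of that fit are no independent support. Fibroblast-associated genes differed in level, with Col3a1 between 1245 and 2348 CPM and Thy1 at most 0.102 CPM. All 7 epithelial and colon markers stayed under 1 CPM in every library, and Epcam and Krt18 had no reads. The labelled tumour origin was thus not visible in epithelial markers. Of 10 leukocyte markers, 8 stayed under 1 CPM in every library. Among them Adgre1 had no reads, and Ptprc reached at most 0.203 CPM.

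The 3′ UTRs of these genes hold the sequence elements through which their mRNAs can be bound, and the elements differ between members. The AU-rich nonamer TTATTTATT was present in the 3′ UTR of 4 of the 8 members, with 5 copies in Il11, 5 in Tnf, 4 in Csf2 and 2 in Lif, where overlapping copies were counted. It was present in 7.1% of 20144 3′ UTRs of protein-coding genes. Among 3′ UTRs within 10% of the same length, the share was 9.62% for Il11, 4.81% for Tnf, 1.88% for Csf2 and 13.3% for Lif. The windows below show how the copies are arranged in each gene, with the nonamers that lie wholly inside a window in capitals. They are given on the transcript strand, with mm10 coordinates, and were taken from GENCODE M21 transcripts.
Lif, first copy (chr11:4272041-4272066, plus strand): aggggcctTTATTTATTatttaaaac
Lif, second copy (chr11:4272404-4272429, plus strand): gattatttTTATTTATTcaatgtcat
Il11, first run (chr7:4773503-4773528, minus strand): accagatcTTATTTATTTATTTATTt
Tnf, first run (chr17:35199690-35199715, minus strand): tgcacttaTTATTTATTATTTATTta
Csf2, first run (chr11:54247330-54247355, minus strand): ttaaatatTTATTTATTTATTTATTt

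In Tnf and Csf2 all copies lie in a single continuous run, which goes on past the end of the window labelled first run. The Lif copies stand singly. Il11 has both, with 3 overlapping copies in the run above and 2 single copies further along its 3′ UTR. No nonamer was present in the 3′ UTR of Il6, Csf1, Csf3 or Il1a. The shorter pentamer ATTTA, which is common in 3′ UTRs, had 6 copies in Il6, 4 in Csf1, 6 in Csf3 and 3 in Il1a. For Il6, 99.5% of 3′ UTRs of similar length had fewer copies per kilobase, and for Csf3 98.6% did. The share was 52.4% for Csf1 and 63.0% for Il1a, close to the middle of their length classes.

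The m6A and YTHDF2 peaks fell on 2 of the 8 members, Lif and Csf1. The windows below show the m6A consensus core GGACT in the WT m6A peaks of both genes, in capitals.
Lif, WT m6A peak 1 (chr11:4269348-4269372, plus strand, 3′ UTR): aatgtaccatGGACTgagggacctc
Lif, WT m6A peak 2 (chr11:4271790-4271814, plus strand, 3′ UTR): agggaccaatGGACTctctccgtgc
Csf1, WT m6A peak 1 (chr3:107748875-107748899, minus strand, coding): gactcactgaGGACTcacaacctca
Csf1, WT m6A peak 2 (chr3:107742802-107742826, minus strand, 3′ UTR): acctggcaagGGACTcactagcctg

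Each of these peaks held 1 copy, and the remaining Csf1 peak held 0. GGACT was present in 35.1% of the 18168 WT m6A peaks whose sequence could be read. Among peaks within 10% of the same length the share was 32.4% for the first Lif peak and 25.2% for the second. For Csf1 peaks 1 and 2 it was 52.9% and 74.9%, since longer peaks hold the core more often. A match marks these letters only and does not locate a modified base.

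Whether the cytokine mRNAs differ between KO-labelled and WT cells was asked of the input counts. Of the 8 members, 5 passed the expression filter (about 0.202 CPM in at least 3 libraries) and entered the edgeR quasi-likelihood test. Csf2, Csf3 and Tnf did not. With all 6 libraries, 0 of the 5 members passed at an adjusted p of 0.05 in either direction, while 2.99% of the 18969 genes tested were called higher and 1.54% lower. Unadjusted p-values were under 0.05 for 4 members, Lif (0.00675), Il6 (0.0207), Csf1 (0.00340) and Il1a (0.00596), and not for Il11 (0.0779). DESeq2 called 3 members higher, Lif, Csf1 and Il1a, against 13.4% of the 15996 genes to which it gave an adjusted p. Without KO-labelled replicate 1, edgeR called all 5 of these tested members, Lif, Il6, Il11, Csf1 and Il1a, higher and 0 lower, against 19.3% of 19551 genes called higher and 16.1% called lower. Il6 passed the filter through 2 KO-labelled libraries and 1 WT library, and Il1a through 3 KO-labelled and 2 WT libraries. The WT libraries alone would not have carried either gene past it, so these counts describe the members that passed and support nothing further. In the fit without KO-labelled replicate 1, Tnf and Il6 each passed the filter only because of their KO-labelled libraries. That fit's p for Tnf is not used, and its p for Il6 is given below without weight. In this bulk RNA, a change in the number of cells making a cytokine and a change in the RNA per cell cannot be told apart.

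Lif, leukaemia inhibitory factor, signals through gp130 and the LIF receptor and maintains mouse stem cell self-renewal. The gene (ENSMUSG00000034394.14) lies on mm10 chromosome 11, 4257557 to 4272514, plus strand. It had 10.5, 37.3 and 39.5 CPM in KO-labelled libraries 1, 2 and 3, against 9.73, 8.56 and 9.51 CPM in the WT libraries. All KO-labelled values lay above all WT values, but replicate 1 was only 1.14 times the WT mean, whereas replicates 2 and 3 were 4.02 and 4.26 times it. The means were 29.1 ± 16.1 CPM in KO-labelled cells and 9.27 ± 0.622 CPM in WT (SD, n = 3 each). The log2 fold change was 1.65 (SE 0.44), with an edgeR adjusted p of 0.0700. Without KO-labelled replicate 1 it was 2.05 (SE 0.09, edgeR adjusted p = 4.06e-05), and over all 11 alternatives the adjusted p ran from 4.06e-05 to 0.233.

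Il6, the family's founding member and a driver of acute-phase responses, was close to the detection limit. The gene (ENSMUSG00000025746.11) lies on chromosome 5, 30013114 to 30019981, plus strand. Its raw counts were 10, 73 and 34 in the KO-labelled libraries and 8, 12 and 5 in the WT libraries. On the CPM scale these were 0.194, 1.48 and 0.724 in KO-labelled cells, against 0.169, 0.261 and 0.0970 in WT. Replicates 2 and 3 lay above every WT library and differed from each other by 2.05-fold, and replicate 1 lay within the WT range. The means were 0.800 ± 0.648 and 0.176 ± 0.0820 CPM (KO-labelled and WT, SD, n = 3 each). The log2 fold change was 2.18 (SE 0.74, edgeR adjusted p = 0.109), and without KO-labelled replicate 1 it was 2.65 (SE 0.49, edgeR adjusted p = 0.00539). Without KO-labelled replicate 2, the highest library, it was 1.38 (SE 0.71, edgeR adjusted p = 0.346). Across the alternatives with an adjusted p, it ran from 0.00539 to 0.346. DESeq2 gave no adjusted p for Il6. The edgeR adjusted p of 0.00539 is not used as support, because Il6 passed that fit's filter only because of its KO-labelled libraries.

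Il11, a gp130 cytokine linked to fibrosis and to gastrointestinal tumours, showed the smallest fold change of the 5 tested members. The gene (ENSMUSG00000004371.15) lies on chromosome 7, 4772373 to 4782859, minus strand. It had 0.835, 2.09 and 1.36 CPM in KO-labelled libraries, against 0.910, 0.999 and 0.505 CPM in WT. KO-labelled replicate 1 fell between the WT values, so the groups overlapped. The means were 1.43 ± 0.631 CPM in KO-labelled and 0.805 ± 0.264 CPM in WT cells (SD, n = 3 each). The log2 fold change was 0.83 (SE 0.41, edgeR adjusted p = 0.217). It was 1.11 without KO-labelled replicate 1 (edgeR adjusted p = 0.0390) and 0.45 without KO-labelled replicate 2 (edgeR adjusted p = 0.576), and these were the lowest and highest adjusted p among the alternatives.

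Csf1, the macrophage colony-stimulating factor, was the most abundant of the 8 genes in every library. The gene (ENSMUSG00000014599.10) lies on chromosome 3, 107741048 to 107760469, minus strand. It had 110.5, 225 and 225 CPM in KO-labelled libraries, against 91.8, 89.9 and 84.8 CPM in WT. Replicates 2 and 3 were each 2.53 times the WT mean and replicate 1 was 1.24 times, and the groups did not overlap. The means were 187 ± 65.9 CPM in KO-labelled and 88.9 ± 3.63 CPM in WT cells (SD, n = 3 each). The log2 fold change was 1.07 (SE 0.25, edgeR adjusted p = 0.0550). Without KO-labelled replicate 1 it was 1.34 (SE 0.06, edgeR adjusted p = 4.06e-05), and the adjusted p ran from 4.06e-05 to 0.217 over the alternatives.

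Csf2, the granulocyte-macrophage factor, had 0 counts in all 6 libraries. Counting error alone would leave room for up to 3 counts per library, or 0.0582 to 0.0652 CPM. Csf3, the granulocyte factor, had 4, 8 and 25 counts in KO-labelled libraries and 0, 0 and 0 in WT libraries. The CPM were 0.0777, 0.163 and 0.532 in the KO-labelled libraries. Their mean was at least 4.13-fold higher than in WT, taking a floor of 3 counts in each WT library. This bound rests largely on KO-labelled replicate 3 and was 1.93-fold without it. An exact two-sided permutation test of the mean CPM gave p = 0.1 for Csf3, the smallest that 3 against 3 libraries can give. Reads from Csf3 were thus present in every KO-labelled library, replicate 1 included, and in no WT library. Csf2 (ENSMUSG00000018916.5) lies on chromosome 11, 54247271 to 54249667, minus strand, and Csf3 (ENSMUSG00000038067.2) on the same chromosome, 98701263 to 98703629, plus strand.

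Il1a, which encodes the alarmin IL-1α, had the largest fold change of the 5 tested members. The gene (ENSMUSG00000027399.1) lies on chromosome 2, 129299610 to 129309972, minus strand. Its counts were 23, 246 and 173 in KO-labelled libraries and 5, 16 and 22 in WT libraries. The CPM values were 0.447, 5.00 and 3.68 in KO-labelled cells and 0.106, 0.348 and 0.427 in WT. KO-labelled replicate 1 was close to the highest WT library, while replicates 2 and 3 were 17.0 and 12.6 times the WT mean. The means were 3.04 ± 2.34 CPM in KO-labelled and 0.293 ± 0.167 CPM in WT cells (SD, n = 3 each). The log2 fold change was 3.35 (SE 0.88, edgeR adjusted p = 0.0669), and without KO-labelled replicate 1 it was 3.87 (SE 0.41, edgeR adjusted p = 0.000599). Over the alternatives the adjusted p ran from 0.000160, in DESeq2, to 0.218. The filter limit given above for Il1a holds for the edgeR fit with all libraries. Il1a shares 222 exonic bases with Gm14023 on the other strand, and reads from both genes cannot be told apart there unless the counting used strand, which the sources used here do not say.

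Tnf, tumour necrosis factor, had 0, 25 and 36 counts in KO-labelled libraries and 6, 0 and 3 counts in WT libraries. The gene (ENSMUSG00000024401.14) lies on chromosome 17, 35199381 to 35202007, minus strand. Its CPM values were 0, 0.508 and 0.766 in KO-labelled cells, against 0.127, 0 and 0.0582 in WT. KO-labelled replicate 1 had no reads, and replicates 2 and 3 lay above every WT library. The mean difference was 0.363 CPM, with p = 0.4 in the exact two-sided permutation test, where the smallest possible is 0.1. The difference ran from 0.192 CPM, without KO-labelled replicate 3, to 0.575 CPM, without KO-labelled replicate 1, when each library was left out in turn.

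**Figure D1:**
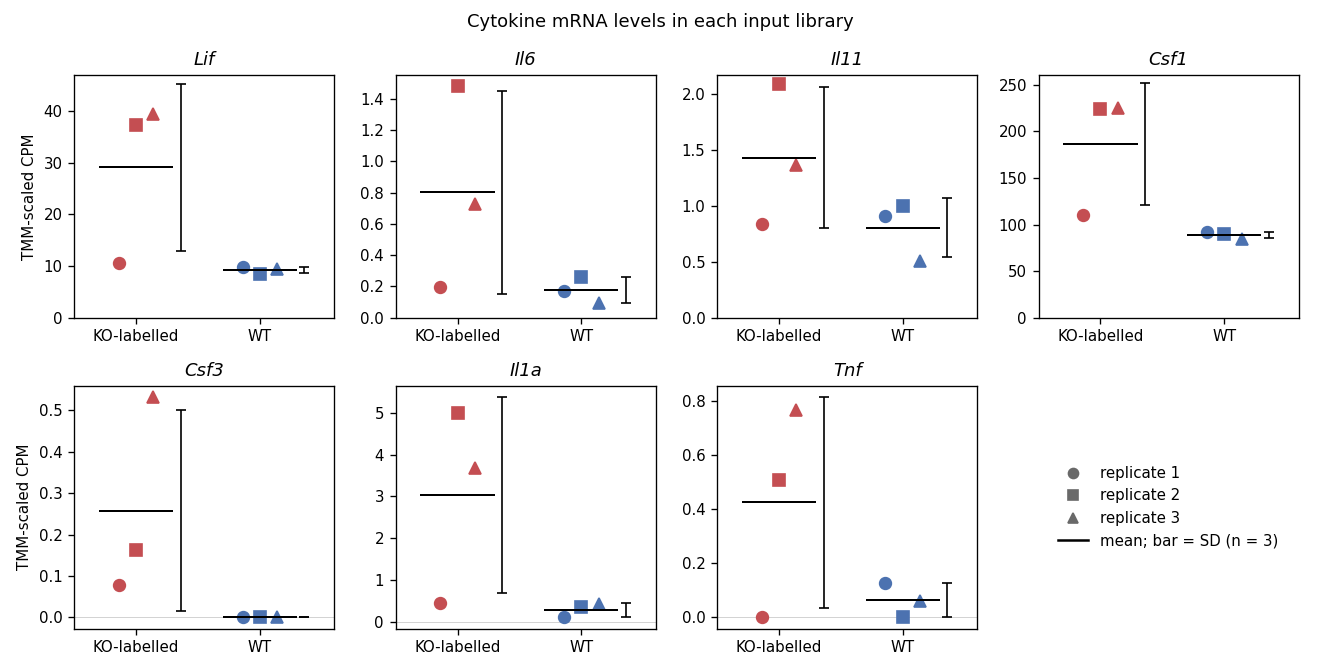
Level of 7 cytokine mRNAs in each input library, on the vertical axis in TMM-scaled CPM, with KO-labelled libraries in red and WT libraries in blue and a separate scale for each gene. Lines mark the mean and bars the SD (n = 3). Replicates 2 and 3 of the KO-labelled group are above every WT library in all panels, while replicate 1 is near or within the WT values; Csf2 had no reads and is not drawn.

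The calls depended on KO-labelled replicate 1 and on the tool. For Lif, Csf1 and Il1a all 3 KO-labelled values lay above all 3 WT values, and this held for 17.7% of all genes tested. No tested member had a negative fold change in any of the 11 alternatives. Il11, and Il6 with the filter limit given above, passed the threshold only in the fit without KO-labelled replicate 1. DESeq2 called Lif, Csf1 and Il1a with that library included (adjusted p of 0.0201, 7.96e-05 and 0.000160), and leaving out any other library in edgeR gave 0 called members. The median log2 fold change of the 5 tested members was 1.65 with all libraries and 2.05 without KO-labelled replicate 1, beside -0.01 and -0.02 over all genes tested. Because Il6 and Il1a passed the filter in part through their KO-labelled libraries, these medians describe the members that passed and support nothing further.

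**Figure D2:**
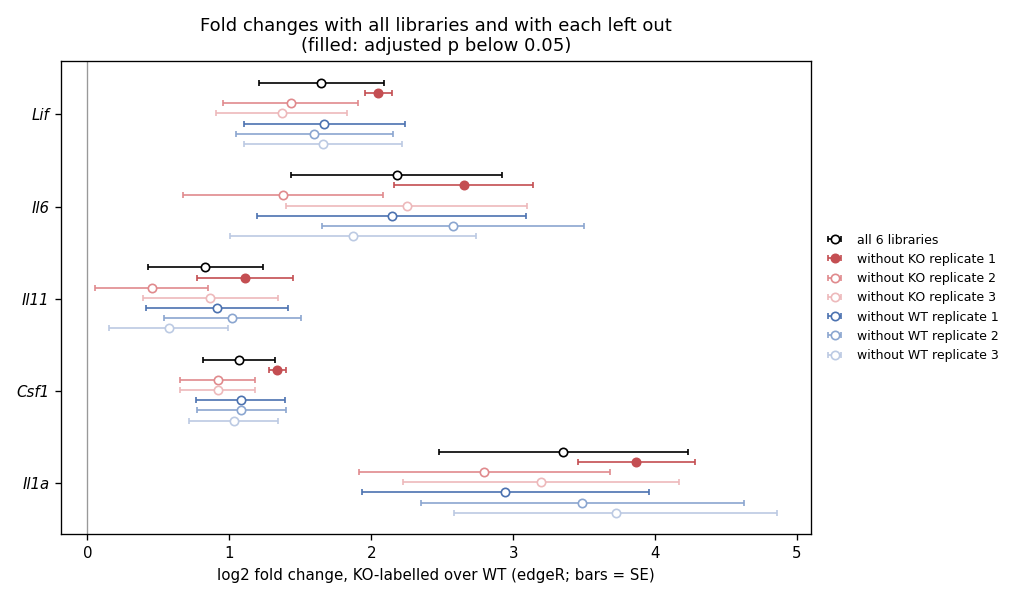
Log2 fold change of the 5 tested cytokine genes, KO-labelled over WT, from edgeR with all 6 libraries and with each library left out. Bars are the SE and filled points have an adjusted p below 0.05. All points are above 0, and the filled points are those without KO-labelled replicate 1, at 2.05 for Lif, 2.65 for Il6, 1.11 for Il11, 1.34 for Csf1 and 3.87 for Il1a.

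Levels were compared between members per kilobase of exon. Csf1 was first, with 35.3 ± 12.5 CPM per kb in KO-labelled and 16.8 ± 0.687 in WT cells, and Lif was second, with 6.69 ± 3.70 in KO-labelled and 2.13 ± 0.143 CPM per kb in WT cells. These 2 kept their places in every library. Il1a and Il11 changed places between libraries. In KO-labelled cells Il1a averaged 1.54 ± 1.19 and Il11 0.687 ± 0.303 CPM per kb, whereas in WT cells Il1a averaged 0.149 ± 0.0847 and Il11 0.387 ± 0.127 CPM per kb. Il1a was above Il11 in KO-labelled replicates 2 and 3 and below it in KO-labelled replicate 1 and in all WT libraries. Il6 followed with 0.330 ± 0.267 CPM per kb in KO-labelled and 0.0724 ± 0.0338 in WT cells, and Tnf with 0.259 ± 0.238 and 0.0377 ± 0.0388 CPM per kb (KO-labelled and WT). Csf3 had 0.182 ± 0.171 CPM per kb in KO-labelled cells and 0 in WT. The SDs of Il6, Tnf and Csf3 overlap in KO-labelled cells, so their order is not resolved. The summed level of the 8 members was 122.5, 271 and 271 CPM in KO-labelled and 103, 100.1 and 95.4 CPM in WT libraries. Csf1 made up 90.1%, 82.8% and 82.8% of that sum in KO-labelled libraries and 89.3%, 89.8% and 88.9% in WT libraries.

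Among 16 receptor genes for these cytokines, 11 were tested. With all libraries 2 rose and 0 fell, beside 2.99% and 1.54% of all genes tested. Both encode signalling chains. Il6st, encoding gp130, had 76.6, 97.1 and 91.9 CPM in KO-labelled and 58.5, 54.0 and 51.4 CPM in WT libraries (fold change on the log2 scale 0.70, SE 0.10, edgeR adjusted p = 0.0293). Il1r1, the IL-1 receptor, had 17.3, 19.4 and 20.1 CPM in KO-labelled and 12.9, 13.6 and 13.3 CPM in WT libraries (fold change on the log2 scale 0.51, SE 0.11, edgeR adjusted p = 0.0439). For both genes replicate 1 of the KO-labelled group was above every WT library. The TNF receptor gene Tnfrsf1a, the most abundant of the list, had 119, 122 and 130.0 CPM in KO-labelled and 103, 118 and 113 CPM in WT libraries and did not pass (edgeR adjusted p = 0.235). Tnfrsf1b, the other TNF receptor, averaged 49.8 ± 10.5 CPM in KO-labelled and 50.4 ± 5.91 CPM in WT cells (SD, n = 3 each). Il6ra, the IL-6 binding chain, had 26.1, 11.5 and 12.8 CPM in KO-labelled and 34.2, 36.7 and 36.5 CPM in WT libraries (fold change on the log2 scale -1.09, SE 0.30, edgeR adjusted p = 0.0714). In the fit without KO-labelled replicate 1, 5 of the 11 receptor genes rose and 4 fell, beside the 19.3% and 16.1% of all genes given above. The LIF receptor gene Lifr, singled out after its values were seen, had 1.96, 8.43 and 7.83 CPM in KO-labelled and 1.06, 1.65 and 1.71 CPM in WT libraries (edgeR adjusted p = 0.0645, and 0.000292 without KO-labelled replicate 1). The ligand-binding receptor genes of the colony-stimulating factors, also singled out after their values were seen, were at or near 0: Csf1r reached at most 0.128 CPM in any library and Csf2ra and Csf3r had no reads. Csf2rb, singled out likewise, was not near 0, with 23.5, 9.47 and 9.90 CPM in KO-labelled and 39.3, 21.4 and 22.2 CPM in WT libraries. Its edgeR adjusted p was 0.166 with all libraries and 0.00488 without KO-labelled replicate 1.

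Of 27 other cytokines of the same families, 24 were in the count table and 14 were tested. With all libraries 1 of these rose and 0 fell, beside 2.99% and 1.54% of all genes tested. Il1rn, the IL-1 receptor antagonist that blocks IL-1α and IL-1β, had 0.680, 2.42 and 1.72 CPM in KO-labelled and 0.275, 0.217 and 0.214 CPM in WT libraries (fold change on the log2 scale 2.76, SE 0.49, edgeR adjusted p = 0.0353). Il1rn was above the WT range in KO-labelled replicate 1 too. The most abundant genes of the list did not pass. Kitl, stem cell factor, had 77.8, 43.8 and 39.0 CPM in KO-labelled and 83.8, 71.9 and 73.8 CPM in WT libraries (edgeR adjusted p = 0.209). Clcf1 averaged 23.5 ± 1.25 CPM in KO-labelled and 22.8 ± 0.969 CPM in WT cells, Flt3l 14.8 ± 6.07 and 18.1 ± 5.16 CPM, and Il34, the second ligand of the CSF1 receptor, 14.3 ± 2.46 and 16.3 ± 3.01 CPM (KO-labelled and WT, SD, n = 3 each). Il1b, encoding the other IL-1 agonist and singled out after its values were seen, had no reads in any library. With KO-labelled replicate 1 left out, 3 of the 14 rose, near the share of all genes in that fit (19.3%), and 4 fell (16.1% of all genes).

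Of 21 tested genes that act on AU-rich mRNAs or in mRNA decay, 0 rose and 0 fell with all libraries, beside 2.99% and 1.54% of all genes tested. At such shares a count of 0 in a list of this size says little. The list is not limited to factors that speed decay, so its counts give no direction for mRNA stability. The most abundant were Cnot1, the deadenylase scaffold, with 299 ± 19.6 CPM in KO-labelled and 272 ± 12.6 CPM in WT cells, and Hnrnpd (AUF1), with 178 ± 9.36 CPM in KO-labelled and 149 ± 4.89 CPM in WT cells (SD, n = 3 each). Dcp2, the decapping enzyme, averaged 148 ± 33.1 CPM in KO-labelled and 125 ± 9.83 CPM in WT cells, and Zfp36l2 136 ± 14.5 and 136 ± 2.58 CPM (KO-labelled and WT, SD, n = 3 each). When KO-labelled replicate 1 was left out, 7 of the 21 rose and 1 fell, beside the same 19.3% and 16.1%.

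The 13 NF-kB subunits, inhibitors and kinases tested gave 0 higher and 0 lower with all libraries, beside 2.99% and 1.54% of all genes tested. Without KO-labelled replicate 1 they gave 10 higher and 0 lower, beside 19.3% and 16.1% of all genes in that fit. Nfkb1 had 129, 159 and 167 CPM in KO-labelled and 129, 139 and 132 CPM in WT libraries. Nfkb2 had 121, 140 and 145 CPM in KO-labelled and 109, 101 and 102 CPM in WT libraries (edgeR adjusted p = 0.0524). All its KO-labelled values lay above all WT values, as for 17.7% of genes tested. The kinase complex genes Ikbkg and Chuk averaged 68.0 ± 6.72 and 70.9 ± 0.475 CPM in KO-labelled cells and 76.9 ± 3.92 and 74.0 ± 1.76 CPM in WT cells (SD, n = 3 each). The feedback inhibitor gene Nfkbia, singled out after its values were seen, had 35.9, 135 and 131 CPM in KO-labelled and 31.6, 38.4 and 42.8 CPM in WT libraries. Its KO-labelled replicate 1 fell within the WT range, as for Il6 and Il11. Nfkbia did not pass with all libraries (edgeR adjusted p = 0.0934) and rose without KO-labelled replicate 1 (edgeR adjusted p = 0.000104).

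Downstream of gp130, 13 JAK-STAT genes were tested, of which 1 rose and 0 fell, beside 2.99% and 1.54% of all genes tested. The gene that rose, Cish, also named after its values were seen, encodes a STAT5-induced suppressor of cytokine signalling and had 1.34, 1.54 and 1.09 CPM in KO-labelled and 0.508, 0.565 and 0.563 CPM in WT libraries (fold change on the log2 scale 1.28, SE 0.24, edgeR adjusted p = 0.0379). Socs3, the STAT3-induced inhibitor that binds gp130, was singled out after its values were seen, with 14.5, 23.4 and 25.6 CPM in KO-labelled and 12.8, 16.6 and 16.0 CPM in WT libraries (edgeR adjusted p = 0.192). Without KO-labelled replicate 1, 6 of the 13 rose, Socs3 among them (edgeR adjusted p = 0.00538), and 1 fell. Of all genes in that fit, 19.3% rose and 16.1% fell. These mRNA levels do not measure STAT phosphorylation or the secreted proteins.

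**Figure D3:**
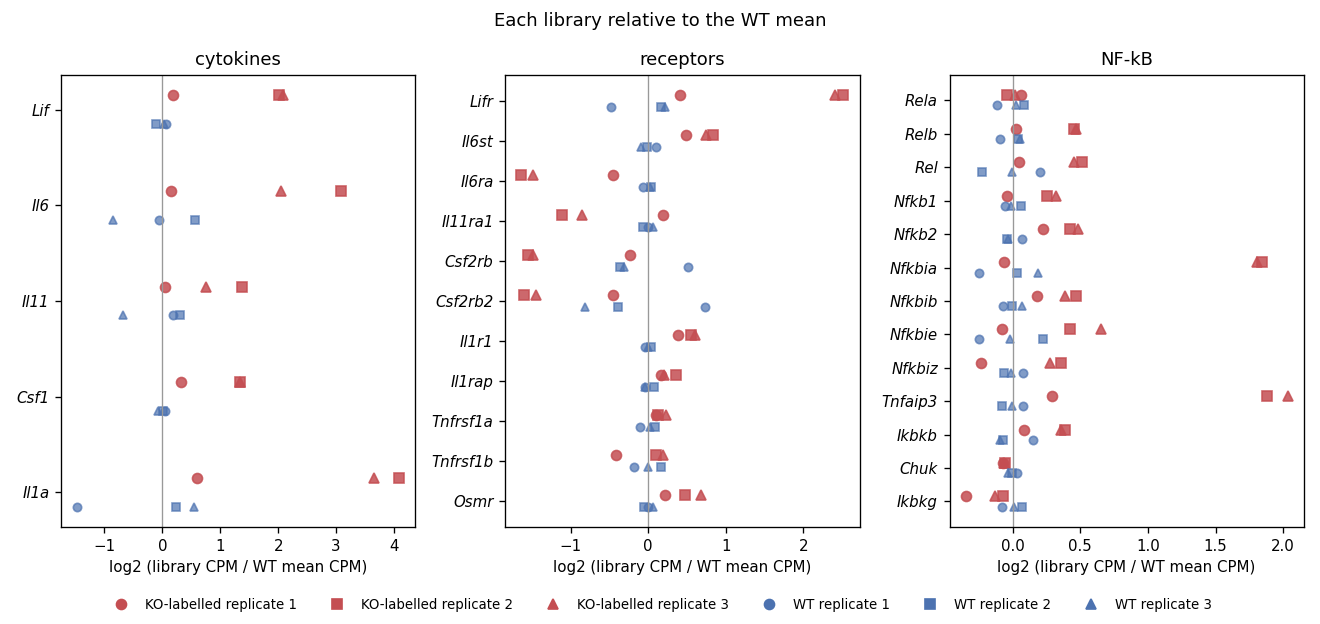
Level of each tested cytokine, receptor and NF-kB gene in each input library, as the log2 of its CPM over the WT mean CPM, with KO-labelled libraries drawn above WT libraries. KO-labelled replicates 2 and 3 are at 2.01 and 2.09 for Lif and at 2.52 and 2.41 for Lifr, and replicate 1 is at 0.18 and 0.41. The WT libraries scatter around 0.

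Cells of other types were looked for beside these results. The summed level of the 10 leukocyte markers was 52.3, 130 and 123 CPM in KO-labelled and 67.7, 87.2 and 83.9 CPM in WT libraries, nearly all of it from Cd68 and Lyz2. Cd68, a lysosomal protein gene, had 42.0, 122 and 117 CPM in KO-labelled and 54.3, 74.7 and 72.6 CPM in WT libraries. Like the cytokines it was high in KO-labelled replicates 2 and 3, but in replicate 1 it was below every WT library. Lyz2, encoding lysozyme, went the other way, with 9.79, 6.81 and 6.54 CPM in KO-labelled and 13.2, 12.0 and 10.9 CPM in WT libraries. The defining leukocyte genes Ptprc, Cd3e, Itgam, Tyrobp and Adgre1 were each at or under 0.203 CPM in every library. The 4 endothelial markers summed to between 1.32 and 2.68 CPM in KO-labelled and between 0.978 and 1.44 CPM in WT libraries. Fibroblast markers summed to 2641, 1504 and 1534 CPM in KO-labelled and 2673, 2115 and 2153 CPM in WT libraries, most of it Col3a1, and the sum was lowest in KO-labelled replicates 2 and 3. Col1a2 was also lowest in KO-labelled replicates 2 and 3, with 25.8, 2.34 and 2.47 CPM in KO-labelled and 62.0, 44.1 and 45.5 CPM in WT libraries. Pdgfra did not share this order, with 138, 184 and 183 CPM in KO-labelled and 145, 144 and 141 CPM in WT libraries. Of the 6 fibroblast markers tested, Dcn passed with all libraries and was lower in KO-labelled cells (29.0, 38.4 and 32.2 CPM, against 48.4, 64.7 and 62.4 CPM in WT, edgeR adjusted p = 0.0355), with its lowest value in replicate 1. The part of these differences in the cytokine results was not tested.

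Genes whose level followed each member most closely were found by Pearson correlation of log2 CPM over the 6 input libraries, among about 14458 genes of mean CPM of at least 1. For Lif these were Arid3a (r = 0.999), Mfge8 (r = 0.998) and Tnfaip3 (r = 0.998). Tnfaip3, encoding the NF-kB inhibitor A20, had 6.86, 20.6 and 22.9 CPM in KO-labelled and 5.90, 5.30 and 5.59 CPM in WT libraries. The closest genes were Sema4c, Rab6b and Zfp516 for Csf1 and Ccdc85b, Uck1 and Mis18a for Il1a. They were Slc35g1, 1700003E16Rik and Pag1 for Il6 and Tnpo1, Ube2d1 and Vrk2 for Il11. How common a high r was differed between members. Among the genes compared, r exceeded 0.95 with Csf1 for 9.56%, with Lif for 7.96% and with Il1a for 5.56%. With Il6 it did so for 1.87% and with Il11 for 0.332%. KO-labelled replicates 2 and 3 stood apart from the other 4 libraries on the first principal component, and the part of this in the correlations was not tested.

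The promoters of the members were searched for motifs of inflammatory transcription factors, because several members were high in the same libraries. RefSeq windows from 250 bases before to 50 bases after the start site (GRCm38.p6) were matched for 7 of the 8 members, all but Csf3. The NF-kB consensus, searched on both strands, was present in 3 members and in 8.46% of 32851 promoter windows. The AP-1 motif TGANTCA, which reads the same on both strands, was present in 4 members, Lif, Il6, Il11 and Il1a, and in 7.81% of windows. The windows below carry the NF-kB match in capitals, with the distance of its first base from the start site.
Lif, -178 (chr11:4257380-4257409, plus strand): atcaagtacaGGGACGCCCCctccccacac
Il6, -44 (chr5:30013060-30013089, plus strand): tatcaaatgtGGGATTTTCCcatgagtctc
Csf1, -154 (chr3:107760604-107760633, minus strand): gggccttgagGGAAAGTCCCtaggggccag

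Lif and Il6 held both motifs and Csf1 the NF-kB consensus alone. Neither motif was found in these windows of Csf2 and Tnf. The matches describe letters and are not evidence of binding, which was not measured for these factors.

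The peak lists show where m6A and YTHDF2 were mapped on these mRNAs. Each group has 1 deposited list, so peaks carry no replicate error, and the depth of the pull-down libraries is unknown here. Among the 5 tested members, 1 had a KO-labelled m6A peak (Csf1), beside 45% of all genes tested. A WT m6A peak was present in 2 (Lif and Csf1), beside 48.7% of genes, and a YTHDF2 RIP peak in the same 2, beside 34.3%. No peak of any list lay on the other 6 members. Peaks were scarce in genes of such low level: 2.59% of tested genes with at most 0.5 CPM in WT had a WT m6A peak and 6.54% of those between 0.5 and 1 CPM, the ranges that hold the WT means of Il6, Il1a and Il11. At 5 to 20 CPM, where Lif lies, the share was 49.9% in the KO-labelled list and 58.1% in the WT list, and 44.5% had a RIP peak.

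Lif had 0 m6A peaks in the KO-labelled list and 2 in the WT list. The first WT peak (4269185 to 4269425) spans the stop codon, with 150 coding bases and 91 bases of 3′ UTR, and the second (4271764 to 4271944) lies in the 3′ UTR. Their deposited scores, read as p-values, were 6.3e-11 and 3.3e-10, and 25.6% and 22.9% of WT peaks had a larger, that is weaker, score. Among WT peaks with a score between 1e-12 and 1e-09, 65.4% of 2196 were overlapped by a KO-labelled peak, compared with 80.3% of all WT peaks. Of the 9427 genes with a WT peak, 11.9% had none in the KO-labelled list. Absence from a list says that no peak was called, and no difference in methylation was tested. The YTHDF2 RIP list held 2 Lif peaks that covered 46.1% of the 4026-base transcript, and both WT m6A peaks lay wholly inside them. The first AU-rich copy shown above begins 15 bases past the end of the second RIP peak.

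Csf1 had 2 m6A peaks in the KO-labelled list and 3 in the WT list. In the coding sequence, a KO-labelled peak (107748588 to 107749006, 419 bases) lay wholly inside a WT peak (107748469 to 107749036, 568 bases). In the 3′ UTR, a KO-labelled peak of 1015 bases (107742003 to 107743017) likewise lay inside a WT peak of 1045 bases (107741973 to 107743017). The remaining WT peak, of 180 bases near the 3′ end (107741316 to 107741495), had no KO-labelled counterpart. It was the weakest of the Csf1 m6A peaks, with a score of 1.6e-15, where the other WT peaks had 1.3e-73 and 1e-179. The m6A peaks covered 34.3% of the 4176-base transcript in the KO-labelled list and 42.9% in the WT list. The 5 RIP peaks covered 94.7% of it and contained every m6A peak base. On Lif and Csf1, all KO-labelled and WT m6A peaks thus lay under YTHDF2 RIP peaks, which on Csf1 left little of the transcript uncovered. The share of all m6A peaks under a RIP peak is not given here, so this overlap has no background to be read against.

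**Figure D4:**
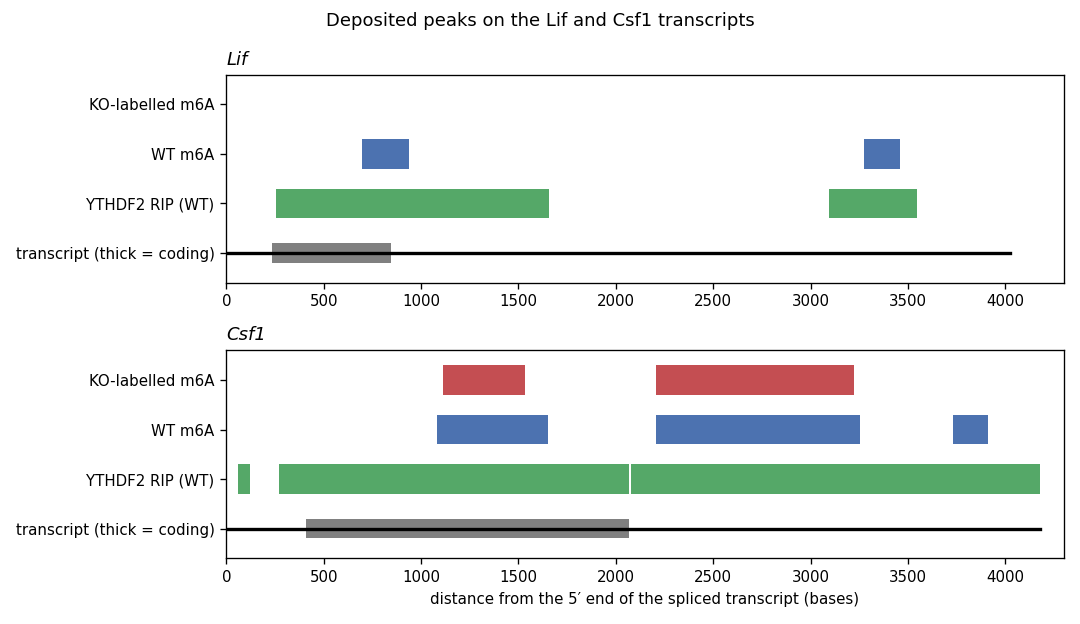
Deposited peaks on the Lif and Csf1 transcripts, drawn to scale as the distance in bases from the 5′ end of the spliced transcript, with the coding part in grey. Lif has no KO-labelled m6A peak and 2 WT m6A peaks, and Csf1 has 2 and 3. RIP peaks cover 46.1% of the Lif and 94.7% of the Csf1 transcript.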

How the data were processed

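The authors deposited raw gene counts of 6 input libraries (with 0 columns of other samples) and 3 peak lists, whose deposited score was taken to be a p-value because of its range. Per the submitters' processing notes, HISAT2, HOMER, ChIPseeker and mm10 were used, in roles that are left unstated. The sources used here name neither the counter, with its strand setting, nor the peak caller.

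Counts of all genes were tested with edgeR 4.0.16 in R 4.3.3 (quasi-likelihood F test, TMM, filterByExpr, no covariate, Benjamini-Hochberg over 18969 genes, threshold 0.05). The SE is the absolute log2 fold change over the square root of F. The script was tested on simulated data. Members under the filter had exact permutation tests on mean CPM. DESeq2 1.42.0, other scalings, no filter, a replicate block and each library left out were alternatives. No 2 libraries agreed within sampling noise. Replicates are not stated to be separate cultures, and the spread behind each p-value may therefore be technical.

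Exon lengths, coordinates and transcript sequences came from GENCODE M21 (GRCm38, the assembly of mm10), and promoters from RefSeq. Peaks overlapped if they shared 1 or more exonic bases on 1 strand. Members, gene lists and tests were chosen with earlier results of these data known. Named genes were all members, the targeted gene, list genes that passed the test, and the 3 genes closest to each tested member. The 4 most abundant genes of the lists of receptors, other cytokines, mRNA decay and stability genes, and NF-kB genes were also named. Genes named outside this rule are marked as chosen after their values were seen, except cell type markers. A gene of the list of other cytokines is not reported here and was left out of that list's counts.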

Additional observations from a re-analysis of the deposited data

How the results depend on the processing

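All fold changes of the 5 tested members stayed positive under the 11 alternatives, and no member was called lower in any. The number of members called higher was 0 with all libraries in edgeR and 0 under the replicate block, other scalings and no filter. It was 3 in DESeq2, and from 0 to 6 when each library was left out in turn. The 6 were reached without KO-labelled replicate 1. They include Tnf and Il6, which passed that fit's filter only because of their KO-labelled libraries. Over all genes, 568 were higher and 293 lower. These counts were 45 and 26 with the replicate block, 70 and 41 with no expression filter, and 2151 and 1142 in DESeq2, and leaving out each library gave 0 to 3782 higher and 0 to 3144 lower. The 0 of both directions came without WT replicate 2, where 4011 genes still had an unadjusted p under 0.05. The cause was not tested. Whether the replicate numbers pair the samples is not settled. Same-numbered libraries correlated weakly, at 0.049, 0.115 and 0.050, in their deviations from the group means. Each library did correlate best with the one of its own number, a hint from the data and not from the design. The block changed no member's call. At a stricter score of 1e-05, 6 of the 7 RIP peaks and all m6A peaks on members remained. With each library left out, an alternative added after seeing the data, the difference in mean CPM stayed positive, from 0.120 to 0.347 for Csf3 and from 0.192 to 0.575 for Tnf. Il6, Csf3 and Tnf rest on few reads, and depth limits what can be said of them and of Csf2. Leaving a KO-labelled or WT library out leaves 2 in that group.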
